A study of Mus musculus with 6 samples.

Results

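The genes encoding the proteins of the cytosolic and of the mitochondrial ribosome were compared between Sox17-GOF and control mouse islets. Members were taken by symbol (the Rpl, Rps, Mrpl and Mrps series with Rplp0, Rplp1, Rplp2 and Rpsa, without entries named as pseudogenes), and each gene was represented by its brightest probe set that carries a single symbol. This gave 138 of the 19937 genes on the array. By symbol, 61 of these were cytosolic (38 of the large and 23 of the small subunit). The other 77 were mitochondrial (48 of the large and 29 of the small subunit). The place of each protein in the ribosome was not checked, so a subunit class can hold proteins that belong elsewhere.

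Islets of 3 Sox17-GOF samples with the genotype Ins2-rtTA;tetO-Sox17 were set against islets of 3 control samples labelled Ins2-rtTA. In Sox17-GOF mice doxycycline switches on Sox17 where the insulin promoter drives rtTA, that is in insulin-producing cells. All mice were males of 16 weeks on a C57BL/6 background to which an outbred stock had been backcrossed for 3 or more generations, and all, control mice included, received doxycycline for 24 hours. RNA of whole islets was hybridized to Affymetrix Mouse Gene 1.0 ST arrays, 1 array per sample, and the methods describe the samples as independent biological triplicates.

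Ribosomes of the cytosol translate the mRNAs made in the nucleus, and those of the mitochondrion translate the few mRNAs of the mitochondrial genome, all of which encode subunits of the respiratory chain and the ATP synthase. Proteins of both ribosomes are encoded in the nucleus. mRNAs of the cytosolic set typically begin with a tract of pyrimidines, through which the kinase mTOR and the RNA-binding protein LARP1 set how much of them is translated. In the β cell, cytosolic ribosomes make proinsulin, and respiration couples glucose to insulin secretion. An array measures mRNA abundance and does not measure translation.

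Sox17, the induced gene, had log2 levels of 6.35, 6.22 and 6.36 in Sox17-GOF islets, against 5.50, 5.72 and 5.71 in control islets. Every Sox17-GOF array lay above every control array, a difference of 0.67 (SE 0.09, 1.59-fold, adjusted p = 0.00876 by limma). Array medians were 6.31 to 6.41 in Sox17-GOF and 6.35 to 6.38 in control islets. Islet hormone genes were bright in both groups, with Ins2 at 13.02 to 13.12 in Sox17-GOF and 13.04 to 13.12 in control islets. Of 8 β cell markers, 4 fell (G6pc2, Ucn3, Pdx1 and Slc2a2), and the mean level of the list was 10.37 to 10.51 in Sox17-GOF and 10.87 to 10.90 in control islets. Of 5 duct markers none passed (1 was higher and 1 lower at an unadjusted p under 0.05, and the methods' t-test called 0), with mean levels of 7.07, 7.42 and 8.06 in Sox17-GOF replicates 1, 2 and 3 and of 7.05 to 7.26 in control islets. Of 6 acinar markers none passed or was under 0.05 unadjusted (0 by the adjusted Student's test), and their mean levels were 12.30, 13.08 and 13.37 in Sox17-GOF replicates 1, 2 and 3 and 12.88 to 13.21 in control islets. Sox17-GOF replicate 1 was thus the lowest of the 6 arrays in acinar markers. Of 6 stromal markers none passed and none was below 0, with 2 higher at an unadjusted p under 0.05 in limma. Their mean levels were 6.49, 7.04 and 7.21 in Sox17-GOF replicates 1, 2 and 3 and 6.17 to 6.73 in control islets. Of 7 endothelial markers only Kdr passed, and it fell. At an unadjusted p under 0.05 in limma, 2 endothelial markers were higher and 3, with Kdr, lower. Of 6 leukocyte markers Cd79a fell, with 0 higher and 2 lower at that unadjusted threshold. The part of these marker differences in the ribosomal values was not tested. In whole islets, fewer cells of a type and less RNA per cell cannot be told apart.

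The starts of genes of both classes are shown because the pyrimidine tract at the start sets the cytosolic class apart in how its mRNAs are controlled. Each line runs from 10 bases before to 20 bases after the annotated transcription start, 5′ to 3′ on the gene's strand, from RefSeq (GRCm38.p6). Capitals mark a run of at least 6 C or T bases that opens with C and begins within 5 bases of the start. The first 5 lines are cytosolic genes with such a run, the sixth is a cytosolic gene without, and the last 3 are mitochondrial genes without.
Rps6 (chr4:86857348-86857377, minus strand): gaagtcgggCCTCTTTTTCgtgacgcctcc
Rplp2 (chr7:141447641-141447670, plus strand): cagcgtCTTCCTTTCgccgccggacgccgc
Rps15a (chr7:118116128-118116157, minus strand): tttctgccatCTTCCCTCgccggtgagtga
Rpl28 (chr7:4792955-4792984, plus strand): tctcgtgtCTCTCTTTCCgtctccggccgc
Rps10 (chr17:27635225-27635254, minus strand): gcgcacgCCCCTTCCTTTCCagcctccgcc
Rpl7l1 (chr17:46782637-46782666, minus strand): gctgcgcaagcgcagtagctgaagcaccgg
Mrps14 (chr1:160195205-160195234, plus strand): cctccacagaacctgtttccggtgttgtac
Mrps18b (chr17:35916421-35916450, minus strand): cggggcgtgtccttggcccaccctagtgcg
Mrpl48 (chr7:100608282-100608311, minus strand): ggggagtcgcgcactcaccgctctgctctc

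Such a run was present at the annotated start of 14 of 49 cytosolic genes with an entry (28.6%), of 4 of 68 mitochondrial genes (5.88%) and of 1834 of 17492 protein-coding genes (10.5%). The cytosolic genes with the run had a median log2 difference of 0.05 (n = 14), and those without one of 0.04 (n = 35). In the window from 250 bases before to 50 bases after the start, both strands were also searched for 3 motifs. CCGGAAG, the core bound by the ETS factor GABPA, was found at 38.8% of cytosolic, 36.8% of mitochondrial and 12.9% of all starts. Its reverse strand, CTTCCGG, can overlap a pyrimidine run. The palindrome bound by NRF1, GCGCA followed by its reverse complement, was found at 4.08% of cytosolic, 4.41% of mitochondrial and 1.47% of all starts. AACAAT, a core bound by SOX proteins, was found at 4.08% of cytosolic, 8.82% of mitochondrial and 10.6% of all starts. A match is a string of letters and not a bound site.

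Of the 138 genes, 1 passed the adjusted threshold, the mitochondrial gene Mrpl19, against 5.21% of all genes on the array (2.77% higher, 2.44% lower) and 4.93% of all probe sets with a symbol. No cytosolic gene passed in limma (0 of 61, with 2 at an unadjusted p under 0.05), and the Student's test named in the methods called 0 after Benjamini-Hochberg adjustment. That adjusted test called only 65 of all 19937 genes, so its counts of 0, here and elsewhere, say little. At the fold of 1.3 and unadjusted p under 0.05 used in the methods, the Student's test called 1 cytosolic and 2 mitochondrial genes, against 7.42% of all genes. Of the 77 mitochondrial genes 1 passed, and 8 were under 0.05 unadjusted, 2 higher and 6 lower. Over both classes 10 genes were under 0.05 unadjusted (7.25%), as compared to 19.7% of all genes.

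The 2 classes lay on opposite sides of the array-wide median, by small amounts. Beside genes of like level, the side of the mitochondrial class varied with the level (below). The median log2 difference was 0.06 for the cytosolic genes (range -0.26 to 0.40) and -0.06 for the mitochondrial genes (range -0.34 to 0.48), against -0.01 for all genes. A difference above 0 was found in 46 of 61 cytosolic genes, in 29 of 77 mitochondrial genes and in 47.1% of all genes. Within the cytosolic class the subunits were close, with medians of 0.05 (large) and 0.07 (small). Within the mitochondrial class, split by symbol, the large subunit had a median of -0.02 and the small subunit one of -0.11. Of their genes, 25 of 48 and 23 of 29 were below 0. The genes of a class share the same 6 arrays and are not replicates, so these medians are descriptions without a test.

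**Figure D1:**
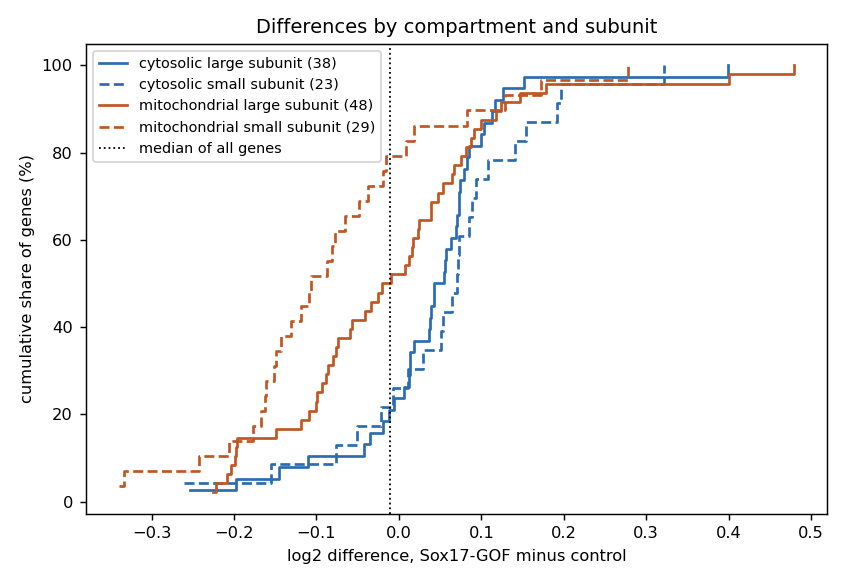
Cumulative share of genes (%, vertical axis) by log2 difference, Sox17-GOF minus control (horizontal axis), for the large (solid) and small (dashed) subunit of the cytosolic (blue) and mitochondrial (orange) ribosome. The dotted line is the median of all genes, -0.01. The mitochondrial small subunit, as assigned by symbol, lies farthest to the left, with 23 of 29 genes below 0.

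On single arrays the class shift was a few hundredths on the log2 scale. The median deviation of the cytosolic genes from their own means over 6 arrays was -0.006, 0.041 and 0.031 in Sox17-GOF replicates 1, 2 and 3, against -0.035, -0.020 and -0.012 in control replicates. The groups did not overlap, but Sox17-GOF replicate 1 lay only just above the highest control array. For the mitochondrial genes the medians were 0.027, -0.041 and -0.059 in Sox17-GOF islets, against 0.035, 0.006 and 0.031 in control islets. Here Sox17-GOF replicate 1 lay within the control arrays, and replicates 2 and 3 lay below them. For both classes that replicate, the lowest in acinar markers, was the Sox17-GOF array nearest to the control arrays. For the mitochondrial small subunit alone the values were -0.004, -0.065 and -0.084 in Sox17-GOF islets, against 0.083, 0.019 and 0.057 in control islets, with no overlap. After quantile normalization of the deposited values the mitochondrial median was -0.01, with 0.01 for all genes.

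**Figure D2:**
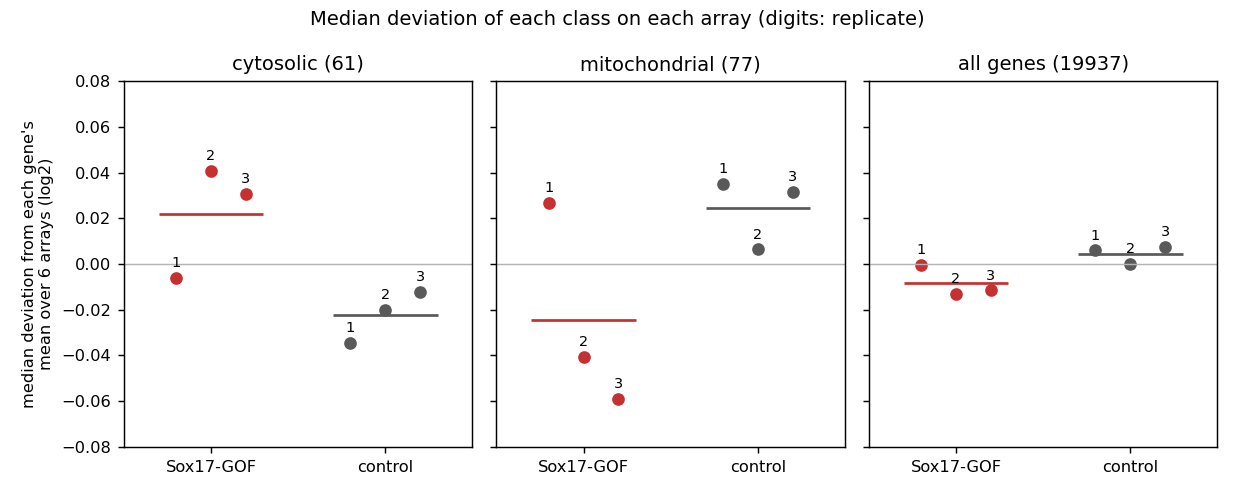
Median deviation of each class on each array (log2, vertical axis) from each gene's mean over 6 arrays, for Sox17-GOF (red, left) and control (grey, right) arrays, digits giving the replicate and lines the group mean. The cytosolic groups do not overlap, while for the mitochondrial genes Sox17-GOF replicate 1 (0.027) lies among the control arrays.

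The median difference over all genes varied with the level, so each class was set beside genes of like level. Among the 39 cytosolic genes with a mean level of 12 or more the median difference was 0.06, against -0.01 for all 212 genes of that level. Among the 54 mitochondrial genes at levels from 8 to 10, most of the class, it was -0.02. There the mitochondrial class lay above all 3953 genes of that range, whose median was -0.07. At levels from 10 to 12, the medians were -0.09 for 12 mitochondrial genes, 0.11 for 8 cytosolic genes and -0.07 for all 1180 genes. Below 8, as at 10 to 12, the mitochondrial class lay below all genes, with -0.12 for 11 mitochondrial genes, against 0.0019 for all 14592 genes. The 7 cytosolic genes at levels from 8 to 10 had a median of 0.02 and the 7 below 8 one of -0.01.

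The precision was high for these genes, and most intervals were narrow. The median SE was 0.07 for cytosolic and 0.09 for mitochondrial genes, against 0.10 for all genes. The 95% interval lay wholly within a 1.3-fold change in either direction (log2 0.379, the fold named in the methods) for 52 of 61 cytosolic and 55 of 77 mitochondrial genes, 107 of 138 in all (77.5%), as compared to 57.2% of all genes. For the other 31 members a change of that size lay inside the interval or at its edge. Of the 39 cytosolic genes at a level of 12 or more, 38 had an interval wholly within that fold, against 77.8% of all genes of that level. Groups did not overlap in 35 of 138 genes (25.4%), against 25.5% of all genes. These were 13 cytosolic genes with higher and 2 with lower values in Sox17-GOF islets, and 3 mitochondrial genes with higher and 17 with lower values, where 11.3% (higher) and 14.2% (lower) of all genes were so separated.

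**Figure D3:**
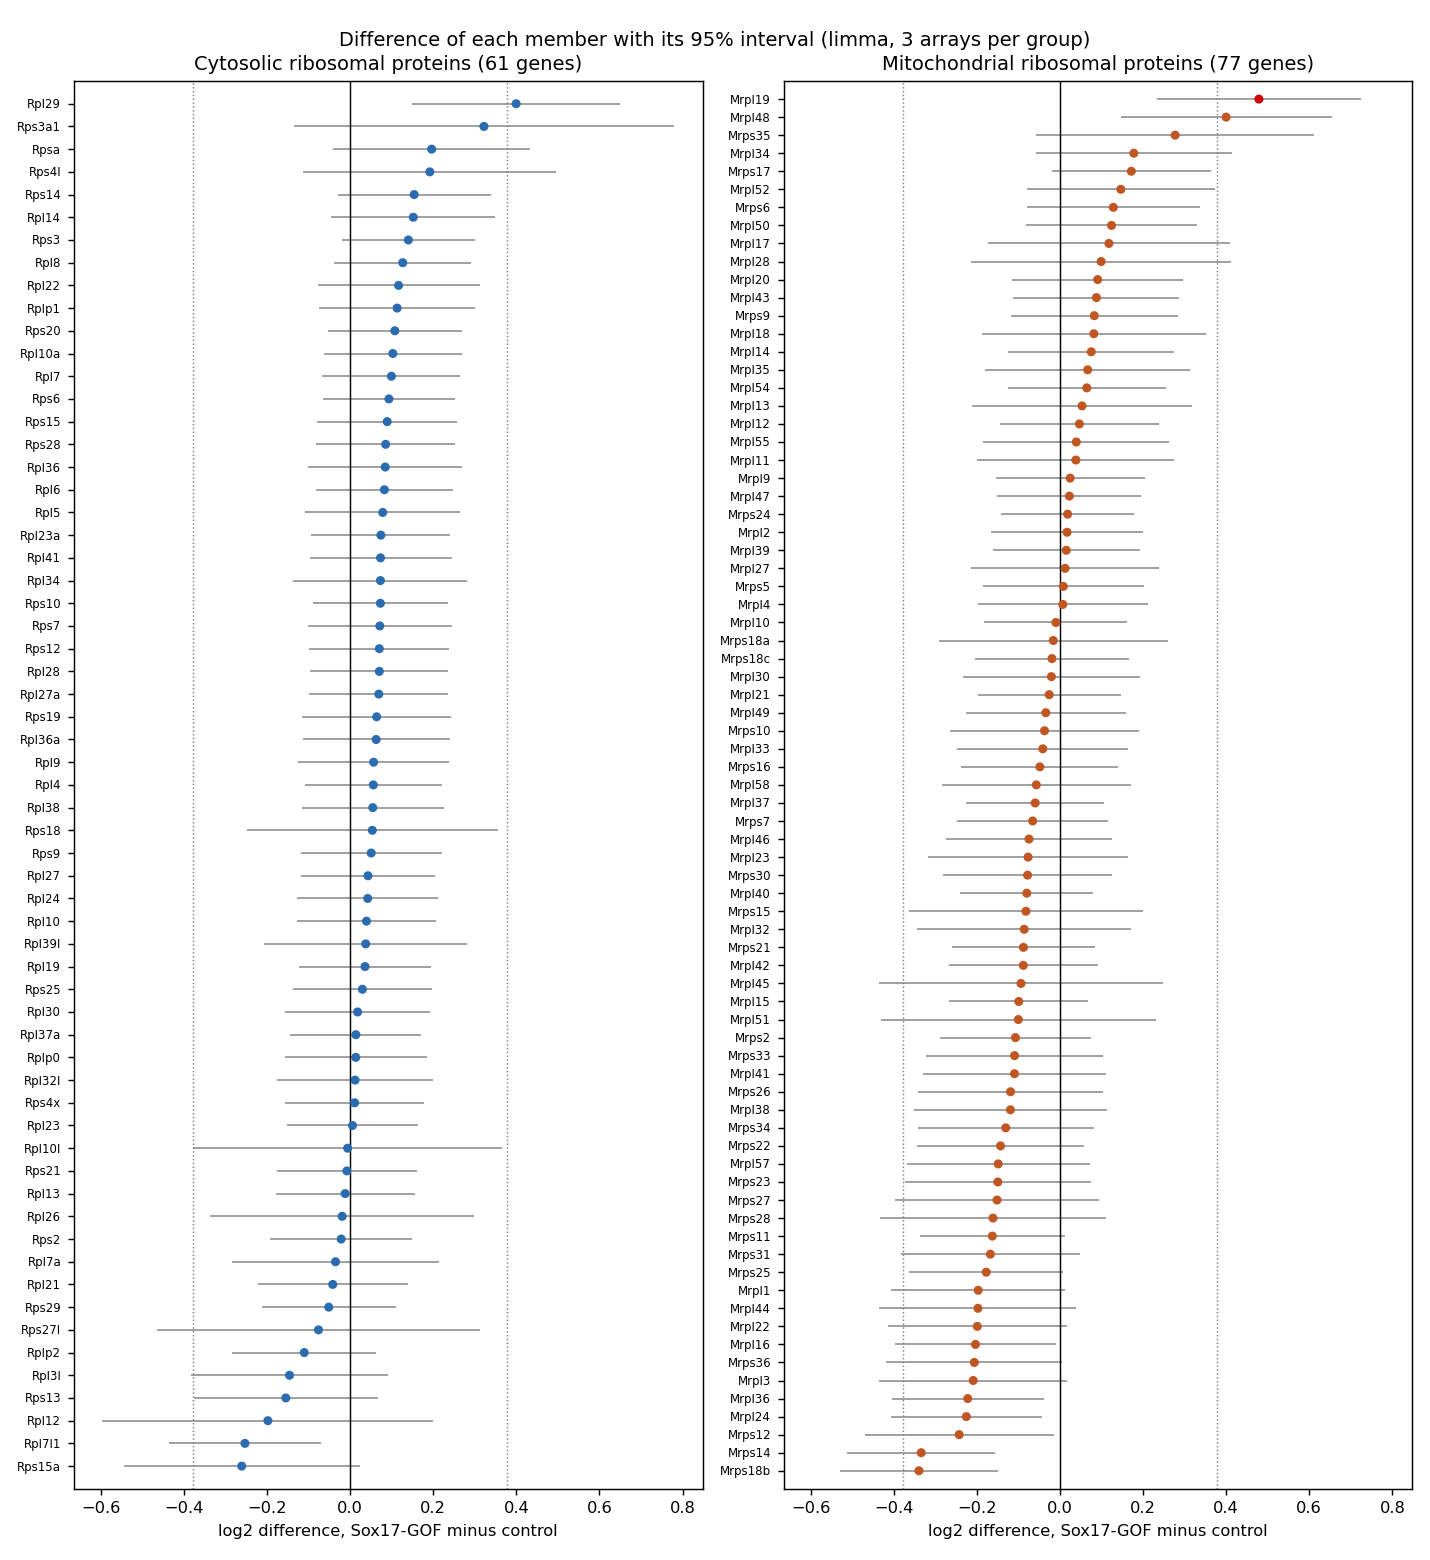
Log2 difference, Sox17-GOF minus control (horizontal axis), of each of the 61 cytosolic (left) and 77 mitochondrial (right) genes, with the 95% interval from limma over 3 arrays per group. Dotted lines mark a 1.3-fold change, and the red point is Mrpl19 (0.48), the only member past the adjusted threshold.

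In the large subunit of the cytosolic ribosome, Rpl29 had the largest difference. Its product is a small basic protein that was also studied as a heparin-binding protein. It had log2 levels of 8.03, 8.04 and 8.13 in Sox17-GOF islets, against 7.59, 7.89 and 7.53 in control islets. All Sox17-GOF arrays lay above the control arrays, and control replicate 2 was the nearest to them. The mean level of its probe set, 7.87, was low beside the median of 12.26 for the large subunit. Levels were also low for Rpl7l1 (8.35) and Rpl12 (6.67), and for Rps15a (9.52) beside 12.50 for the small subunit. Rps3a1 (12.50) and Rps13 (12.42) were not low. The difference was 0.40 (SE 0.11, 95% interval 0.15 to 0.65), and it did not pass (adjusted p = 0.0861, limma). Next came Rpl14 at 0.15 (adjusted p = 0.394), whose groups overlapped.

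At the other end of the large subunit stood Rpl7l1, a paralogue of Rpl7. It had 8.11, 8.27 and 8.29 in Sox17-GOF islets, against 8.50, 8.46 and 8.47 in control islets, and the difference was -0.25 (SE 0.08, adjusted p = 0.127). The control arrays lay within a narrow band above all Sox17-GOF arrays. Rpl7 itself was at 0.10 (adjusted p = 0.524). Rpl12, which sits at the base of the stalk where elongation factors bind, differed by -0.20 with overlapping groups (adjusted p = 0.605). Of the stalk proteins, Rplp0, long used as a reference gene in quantitative PCR, had 13.08, 13.14 and 13.02 in Sox17-GOF islets, against 13.06, 13.03 and 13.11 in control islets, a difference of 0.01 (95% interval -0.16 to 0.18). Rplp2 had 9.46, 9.52 and 9.37 in Sox17-GOF islets and 9.56 on each control array, a difference of -0.11 (adjusted p = 0.495). Rplp1 went the other way, at 0.11 with overlapping groups (adjusted p = 0.522). Its mean level was 12.70, beside 9.51 for Rplp2.

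Rpl5, which binds MDM2 when ribosome assembly is disturbed, was at 0.08 (adjusted p = 0.67) with overlapping groups. Other genes with a paralogue were measured in part, and none of those named here passed in limma. Rpl10 was at 0.04 (0.02 to 0.56 over its 5 probe sets) and Rpl10l, which replaces it in male germ cells of the mouse, at -0.01. Rpl22, which also binds RNA outside the ribosome, was at 0.12. Rpl3l, the paralogue of striated muscle, was at -0.15 and Rpl39l, the paralogue of male germ cells, at 0.04. Rpl39l was the only member with a mean under 4.63, the 20th percentile over the whole table, and so close to background.

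In the small subunit of the cytosolic ribosome the largest difference was that of Rps3a1. It had log2 levels of 12.19, 12.87 and 12.93 in Sox17-GOF islets, against 12.21, 12.30 and 12.51 in control islets. Replicate 1 of Sox17-GOF lay below all control arrays and the other replicates above them. The same array had the lowest acinar marker level, whose part in this result was not tested. The difference was 0.32 with the largest SE among the members, 0.20 (adjusted p = 0.443), and without Sox17-GOF replicate 1 it was 0.56 (adjusted p = 0.0464). Rpsa, also known as a laminin receptor at the cell surface, was at 0.20 (adjusted p = 0.361) with overlapping groups. Its less bright probe sets were at 0.05, 0.07, 0.06 and 0.07. The retrogene-derived Rps4l was at 0.19 (adjusted p = 0.499), beside 0.01 for the X-linked Rps4x.

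The lowest differences of that subunit belonged to Rps15a and Rps13, both structural proteins that bind its rRNA. Rps15a had 9.22, 9.49 and 9.46 in Sox17-GOF islets, against 9.43, 9.81 and 9.71 in control islets, so control replicate 1 lay among the Sox17-GOF arrays (difference -0.26, SE 0.12, adjusted p = 0.305). Rps13 was at -0.15 (adjusted p = 0.446). Rps27l, a p53 target, was at -0.08 with a wide interval of -0.46 to 0.31. Rps6, the protein that the kinases downstream of mTOR phosphorylate, had 13.50, 13.43 and 13.47 in Sox17-GOF islets, against 13.37, 13.38 and 13.37 in control islets. Those groups did not overlap, but the difference was only 0.09 (95% interval -0.07 to 0.25, adjusted p = 0.531).

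In the large subunit of the mitochondrial ribosome Mrpl19, a protein of the bacterial L19 family, rose. It had log2 levels of 8.69, 8.54 and 8.30 in Sox17-GOF islets, against 8.05, 8.03 and 8.01 in control islets. All Sox17-GOF arrays lay above the control arrays, replicate 1 the farthest and replicate 3 the nearest. The difference was 0.48 (SE 0.11, 95% interval 0.23 to 0.72, 1.39-fold, adjusted p = 0.0461, limma). The call was lost with an intensity trend (adjusted p = 0.0502), after median centring (0.0802), over all probe sets (0.102) and by the Student's test (0.182). It was also lost without any 1 array other than Sox17-GOF replicate 3 (adjusted p of 0.146 at most), and without that array the difference was 0.58 (adjusted p = 0.0162).

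Mrpl48 had the same order of arrays, with 10.74, 10.56 and 10.33 in Sox17-GOF islets, against 10.17, 10.12 and 10.13 in control islets. The groups did not overlap, and the difference of 0.40 (SE 0.11, 95% interval 0.15 to 0.65) did not pass (adjusted p = 0.0892). Sox17-GOF replicate 3 was the lowest of its group for both genes. It was also the array with the highest duct, acinar and stromal marker levels, whose part in these results was not tested. On the lower side stood Mrpl24, with 10.38, 10.32 and 10.23 in Sox17-GOF islets, against 10.47, 10.54 and 10.60 in control islets (difference -0.23, SE 0.08, adjusted p = 0.168). Mrpl36, with 8.52, 8.33 and 8.43 in Sox17-GOF islets, against 8.67, 8.62 and 8.65 in control islets, followed at -0.22 (SE 0.08, adjusted p = 0.178). Neither gene's groups overlapped.

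In the small subunit of the mitochondrial ribosome the 2 lowest genes of the whole set, by the probe sets used, were found, and neither passed. Mrps18b, a member of a family with Mrps18a and Mrps18c, had 8.14, 8.23 and 8.02 in Sox17-GOF islets, against 8.50, 8.49 and 8.42 in control islets (difference -0.34, SE 0.08, adjusted p = 0.0615). Mrps14, a protein of the head of the subunit, had 9.80, 9.69 and 9.65 in Sox17-GOF islets, against 10.001, 10.08 and 10.06 in control islets (difference -0.33, SE 0.08, adjusted p = 0.053). In neither gene did the groups overlap, and the Sox17-GOF values were the lower ones. Mrps14 passed in 3 alternatives, with an intensity trend (adjusted p = 0.0464), with array weights (0.0402) and when the probe sets of each gene were averaged (0.0456).

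On the higher side of that subunit Mrps35 had 8.93, 8.73 and 8.37 in Sox17-GOF islets, against 8.27, 8.47 and 8.46 in control islets, and replicate 3 lay within the control arrays (difference 0.28, adjusted p = 0.358). Mrps17 was at 0.17 (adjusted p = 0.315) without overlap. Mrps36, at -0.21 (adjusted p = 0.277), keeps its ribosomal symbol although its product is now known as a subunit of the 2-oxoglutarate dehydrogenase complex. By that symbol Mrps36 was counted in the small subunit.

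**Figure D4:**
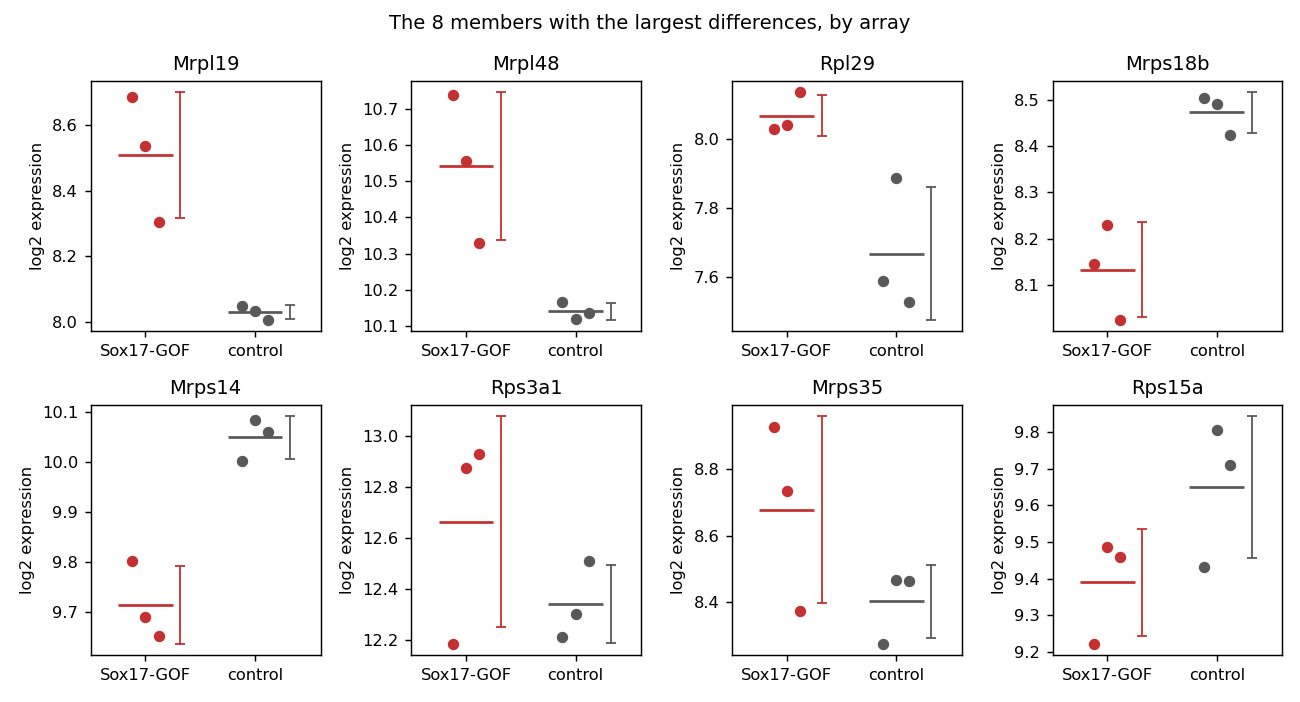
Log2 expression (vertical axes, each with its own range and not starting at 0) on each array for the 8 members with the largest differences, Sox17-GOF in red at the left and control in grey at the right. Lines are group means and bars the SD over 3 arrays, and Mrpl19 and Mrpl48 show a wider spread in Sox17-GOF than in control islets.

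Several ribosomal proteins carry symbols outside the series used here. Fau, which encodes a small subunit protein fused to a ubiquitin-like one, was at 0.10 (adjusted p = 0.557). Dap3, the GTP-binding protein of the mitochondrial small subunit, had 7.51, 7.22 and 7.14 in Sox17-GOF islets, against 7.82, 7.88 and 7.66 in control islets (difference -0.49, SE 0.12, adjusted p = 0.0577). Gadd45gip1, a protein of the mitochondrial large subunit, had 7.84, 7.37 and 7.35 in Sox17-GOF islets, against 8.08, 7.98 and 8.06 in control islets (difference -0.52, SE 0.14, adjusted p = 0.0807). For both genes all Sox17-GOF arrays lay below the control arrays, and both differences exceeded that of every member in the same direction. Ptcd3, at -0.01, overlapped, and Chchd1 was at -0.09 without overlap (adjusted p = 0.56).

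Factors that build or run the ribosomes were counted in the same fit. Of 88 measured genes of nucleolar rRNA processing and subunit assembly, 1 rose and 1 fell, where 2.77% of all genes rose and 2.44% fell. At an unadjusted p under 0.05 in limma, 3 were higher and 17 lower, where 10.7% of all genes were lower. The median difference was -0.11, against -0.01 for all genes, -0.07 for those at levels from 8 to 10 and 0.0019 for those below 8. Gnl2, a nucleolar GTPase needed for export of the large subunit, had 10.27, 10.07 and 9.88 in Sox17-GOF islets, against 9.06, 8.90 and 8.96 in control islets. All Sox17-GOF arrays lay far above the control arrays, a difference of 1.10 (SE 0.11, 2.14-fold, adjusted p = 0.00282). Gnl3, the related GTPase nucleostemin, had 9.34, 9.26 and 9.13 in Sox17-GOF islets, against 9.80, 9.77 and 9.74 in control islets. It fell by 0.53 (SE 0.08, adjusted p = 0.0138), and the call was lost without control replicate 1 or 2 (adjusted p of 0.0675 at most).

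The nucleolar proteins Npm1 (0.05, adjusted p = 0.847) and Ncl (-0.03, adjusted p = 0.875) overlapped between groups, while Fbl, the methyltransferase of rRNA, was at -0.34 without overlap (adjusted p = 0.0939). Of 32 genes of rRNA transcription 1 fell, where 2.44% of all genes did. This was Bdp1, a subunit of the initiation factor TFIIIB, with 8.92, 8.89 and 8.94 in Sox17-GOF islets, against 9.22, 9.30 and 9.21 in control islets. Its difference was -0.33 (SE 0.07, adjusted p = 0.0436). The call was lost whichever array was left out (adjusted p of 0.0763 to 0.161), and also with an intensity trend, median centring, quantile normalization or all probe sets (0.0506 to 0.0873). The median of the list was -0.15, against -0.01 for all genes, -0.07 for those at levels from 8 to 10 and 0.0019 for those below 8. At an unadjusted p under 0.05 in limma, 1 gene of the list was higher and 5 were lower, where 10.7% of all genes were lower.

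Of 34 genes of mitochondrial ribosome assembly and translation 1 fell, where 2.44% of all genes did. At an unadjusted p under 0.05 in limma, 0 were higher and 7 lower, where 10.7% of all genes were lower. The median was -0.13, against -0.01 for all genes, -0.07 for those at levels from 8 to 10 and 0.0019 for those below 8. The gene that fell was Lrpprc, which stabilizes mitochondrial mRNAs, with 9.42, 9.15 and 9.42 in Sox17-GOF islets, against 9.94, 10.06 and 9.78 in control islets. The groups were well apart, a difference of -0.60 (SE 0.11, adjusted p = 0.0266), but the call was lost without Sox17-GOF replicate 2, control replicate 1 or control replicate 2 (adjusted p of 0.106 at most). Over all probe sets its adjusted p was 0.0699. The adjusted Student's test called none of Gnl2, Gnl3, Bdp1 and Lrpprc (adjusted p of 0.0771 to 0.155). Tufm, the mitochondrial elongation factor, was at -0.25 (adjusted p = 0.144).

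Of 16 genes that control mRNAs with pyrimidine tracts none passed in limma (0 of 16), and the adjusted Student's test called 0. At an unadjusted p under 0.05 in limma 6 were lower, where 10.7% of all genes were. The median was -0.20, against -0.01 for all genes, -0.07 for those at levels from 8 to 10 and 0.0019 for those below 8. Mtor was at -0.24 (adjusted p = 0.224), Larp1 at -0.19 (adjusted p = 0.264) and the translational repressor Eif4ebp1 at -0.33 (adjusted p = 0.178). Among 11 regulators of mitochondrial genes none passed either (2 lower unadjusted, 0 by the adjusted Student's test). Of those whose motifs were searched above, Gabpa was at -0.02 (adjusted p = 0.948) and Nrf1 at -0.32 (adjusted p = 0.0997).

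Many genes of the mitochondrial class share a start region with a gene on the opposite strand. A measured neighbour whose start lay within 1000 bases on the other strand was found for 24 of 68 mitochondrial genes (35.3%) and for 5 of 49 cytosolic genes (10.2%), as compared to 9.58% of all measured protein-coding genes with an entry. In 1 case, Mrpl46 and Mrps11 with starts 42 bases apart, both were members. The sign of the difference was the same for gene and neighbour in 12 of 24 mitochondrial cases. Across these 24 cases, which hold 23 distinct pairs measured on the same 6 arrays, Pearson's r of the differences was 0.57.

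Without Mrpl48 and Mrps18b, the members farthest from the median of these cases, r was 0.34 (n = 22).

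The neighbours of those members were as follows. Rab6a, a Golgi GTPase whose start lies 36 bases from that of Mrpl48, had 9.68, 9.59 and 9.49 in Sox17-GOF islets, against 9.37, 9.13 and 9.27 in control islets (difference 0.33, adjusted p = 0.0939). Ppp1r10, a nuclear regulator of protein phosphatase 1 with its start 756 bases from that of Mrps18b, had 8.33, 8.59 and 8.40 in Sox17-GOF islets, against 8.81, 8.83 and 9.03 in control islets (difference -0.45, adjusted p = 0.051). Neither neighbour's groups overlapped. The only neighbour that passed was Cyb5rl, which rose by 0.42 (SE 0.08, adjusted p = 0.0346), while Mrpl37, 128 bases away, was at -0.06 (adjusted p = 0.726).

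**Figure D5:**
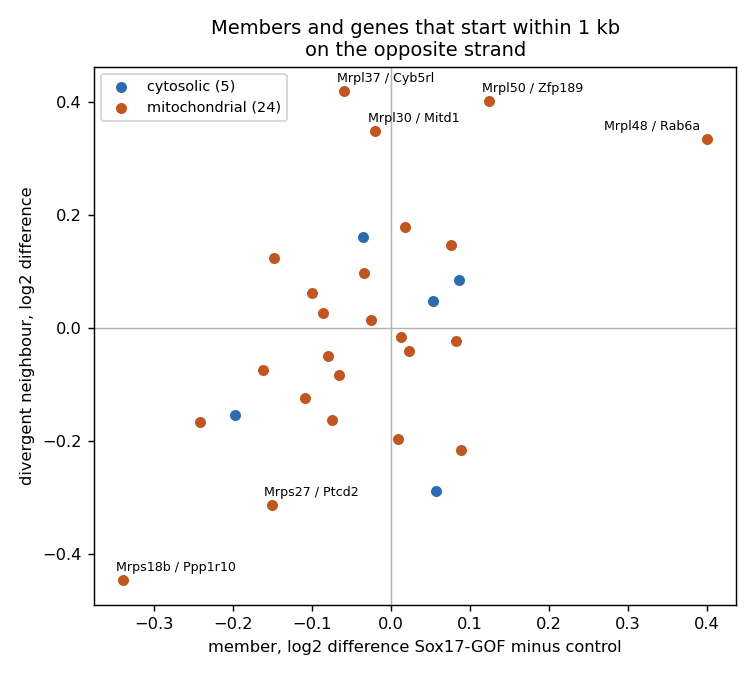
Log2 difference, Sox17-GOF minus control, of each member (horizontal axis) and of the gene that starts within 1000 bases on the opposite strand (vertical axis), for 24 mitochondrial (orange) and 5 cytosolic (blue) members. Mrpl48 with Rab6a lies at the upper right and Mrps18b with Ppp1r10 at the lower left.

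Probe sets set a limit that differs between the classes. Of the 138 genes 46 had several single-symbol probe sets, 38 of them cytosolic. None of the 140 further probe sets passed in limma, against 4.93% of all probe sets with a symbol. Of the 140, 7 were under 0.05 unadjusted, against 19.7% of all genes, and the adjusted Student's test called 0. The probe sets of a gene had 1 sign in 22 of these 38 cytosolic and in 6 of 8 mitochondrial genes. The second, less bright probe set of Mrpl51 was at -0.41 without overlap (adjusted p = 0.0786), lower than every value used for a member, while the one used was at -0.10 with overlapping groups. On the higher side, the least bright probe set of Rpl10 was at 0.56 without overlap (adjusted p = 0.126, limma), above every value used for a member. A less bright probe set of Rpl23a was at 0.46, also without overlap (adjusted p = 0.0943, limma). Rpl36 spanned the most, -0.68 to 0.11 over 8 probe sets, where the lowest value came from its least bright probe set, with overlapping groups. A further 208 probe sets carried a ribosomal protein symbol together with others and were left out. Of these 2 passed, against 4.93% of all probe sets with a symbol. Cytosolic ribosomal protein genes have many processed copies in the genome, and probes that match a copy cannot be told from the gene, so single cytosolic values are uncertain. The same holds for any mitochondrial gene with such a copy. By the rule, 25 RefSeq genes had no single-symbol probe set and were not analysed here, 24 of them cytosolic, such as Rpl3, Rpl11, Rpl39 and Rps27.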

How the data were processed

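The deposited values are log2 expression per probe set of 6 Affymetrix Mouse Gene 1.0 ST arrays, made by the authors by RMA (background correction, quantile normalization of probes, median polish). The methods name GeneSpring 10.1 and the submitters' processing notes Affymetrix Expression Console, without a version; nothing was rescaled here. Groups followed the genotype labels. limma 3.58.1 in R 4.3.3 (lmFit, eBayes without trend, two-sided) compared Sox17-GOF with control islets over 22961 probe sets that carry a gene symbol, with Benjamini-Hochberg adjustment over all of them at 0.05. The 11799 probe sets without a symbol were left out. A gene was represented by its brightest single-symbol probe set. Student's test of the methods, on the same values, was an alternative.

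The 138 members and the gene lists were chosen with earlier results of these data known. Named were the members past the threshold, the 2 highest and 2 lowest of each subunit class, paralogue pairs, Rps6, Rpl5 and Rplp0, called list members and Sox17. Other genes were named after their values were seen.

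The fit was repeated with array weights, an intensity trend, quantile normalization, median centring, every probe set of the table, without dim probe sets (mean below the 20th percentile in both groups), with a replicate block, with probe sets averaged per gene, and without each array. Student's test was used with adjustment and at a fold of 1.3 with unadjusted p under 0.05. Scripts were tested on simulated data. Sequences and starts came from RefSeq tables (GRCm38.p6), in which all 138 symbols matched. With 3 arrays per group an exact permutation test cannot go below p = 0.1 (Sox17: 0.1, two-sided).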

Additional observations from a re-analysis of the deposited data

How the results depend on the processing

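With 3 arrays per group, single calls were fragile. The count of mitochondrial genes past the threshold, 1 in the fit reported, was 3 with array weights, 2 after quantile normalization, 2 with probe sets averaged per gene, 2 by the methods' t-test at a fold of 1.3 and unadjusted p under 0.05, and 0 after median centring, over all probe sets and by the methods' t-test after adjustment. It was 0 to 2 when each array was left out. With an intensity trend it was 1, with Mrps14 in place of Mrpl19. The cytosolic count, 0, was 1 by the methods' t-test at that fold (Rpl29) and 0 to 1 when each array was left out (Rps3a1, without Sox17-GOF replicate 1). The count over all probe sets with a symbol, 1133, was 558 when probe sets without a symbol were added and 71 by the methods' t-test after adjustment. It was 385 to 1020 when each array was left out, and 71 to 1623 over all alternatives. For array weights, quantile normalization and averaged probe sets no share of all genes stands beside the member counts, so those counts are descriptions only. The cytosolic median kept its sign under all 15 alternatives (0.05 to 0.07), and the mitochondrial median moved to -0.00978 after quantile normalization (-0.07 to -0.03 when each array was left out).

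Deviations of same-numbered arrays of the groups correlated at 0.05, -0.02 and -0.04, and those of differently numbered arrays at -0.05 to 0.06. With 3 arrays per group this cannot exclude a pairing, and the labels give only a replicate number. With the replicate block the mitochondrial count was 0, the cytosolic count 0 and the count over all probe sets with a symbol 720. Mrpl19 (adjusted p = 0.0709), Bdp1 (0.106) and Lrpprc (0.0789) were not called with the block.

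Differences near 0 changed sign. Quantile normalization gave 0.00738 for Rpl10l and -0.00737 for Rplp0, and averaged probe sets gave -0.00342 for Rplp0. When each array was left out, Rps27l ranged from -0.21 to 0.12, Rpl10l from -0.198 to 0.0949, Rplp0 from -0.0162 to 0.0435, Rps4x from -0.00944 to 0.0355 and Rpl39l from -0.0631 to 0.107. No other named gene changed sign. Levels near 4.63, the 20th percentile, lie close to background.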
